A study of Mus musculus with 25 samples.

Results

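The 38 genes described here encode the machinery of cell division: the factors that license and copy DNA, the enzymes that supply nucleotides, the cyclins and the kinase Cdk1, and the proteins that build the mitotic spindle and separate the chromosomes. They were chosen by symbol as a list of proliferation genes, and all 38 were found among the 55487 genes of the deposited expected-count table. All 38 also passed the filter on low counts, which left 19155 genes for testing.

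Transcripts were counted in 25 libraries of Achilles tendon from mice aged 3 months. The animals were wild type (WT) or AMPKcKO (written cKO), a conditional knock-out of the energy-sensing kinase AMPK, and had either cage activity or wheel running. There were 7 libraries of WT cage animals, 4 of them female, and 6 in every other group, where 3 were female and 3 male. The labels name neither the Cre line nor the deleted exons, and they do not say whether each library came from a separate animal, so p-values measure the spread between these libraries, which may be partly technical.

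A dividing cell first expresses E2F target genes, which include the MCM helicase subunits and the enzymes of DNA synthesis. Later, in G2 and mitosis, the MuvB complex with B-Myb (Mybl2) or FoxM1 activates a second wave that includes Cdk1, the B-type cyclins, Top2a and Mki67. The tenocytes of an adult tendon divide rarely, so transcripts of the second wave are few in such tissue, while MCM and Pcna transcripts can also be found in cells that are not in mitosis.

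The 2 waves are usually traced to short words in the promoter, so the 250 bases upstream of each RefSeq start site (GRCm38.p6) were searched on both strands. The table held 31 of the 38 genes, with 32 promoters; Ccna2, Ccne2, Mcm4, Foxm1, Aurkb, Tpx2 and Kif20a were not matched. A CCAAT box (CCAAT) stood in 78.1% of these promoters and in 33.8% of the 32851 promoters of all genes. A CHR word (TTTGAA or TTCGAA), the element bound by MuvB, stood in 34.4% against 17.1%, and CHR and CCAAT together in 34.4% against 6.02%. E2F words (TTTCGCGC, TTTGGCGC, TTTCCCGC or TTTGCCGC) stood in 15.6% against 1.86%. Of the 5 genes with an E2F word, 4 were among the 8 matched genes of replication licensing and the fork, and the other was Cdk1. CCAAT was present in all 4 genes of the kinetochore and chromosome group, but also in 7 of the 8 licensing and fork genes. CHR words stood in 2 of the 4 kinetochore and chromosome genes and 3 of the 8 licensing and fork genes. They stood in 1 of 6 matched mitotic kinase and checkpoint genes and 1 of 3 matched spindle genes. For cyclins and Cdk1 the count was 2 of 4 matched genes, and for partners of the anaphase-promoting complex 2 of 2. It was 0 of 2 for nucleotide supply and 0 of 2 for the transcription factors. CCAAT and CHR words thus occurred in genes of both waves, and whether their shares differ between the waves was not tested. Such matches describe letters and not bound sites. The last 150 bases before the start are shown for Mcm6, the gene with the smallest p for running in WT and on average, and for Mki67 and Top2a, which varied together across libraries; all 3 lie on the minus strand, and capitals mark the words searched. In Mcm6 the first capital run is TTTGGCGC overlapping a reversed TTTCGCGC.
Mcm6, chr1:128359706-128359855: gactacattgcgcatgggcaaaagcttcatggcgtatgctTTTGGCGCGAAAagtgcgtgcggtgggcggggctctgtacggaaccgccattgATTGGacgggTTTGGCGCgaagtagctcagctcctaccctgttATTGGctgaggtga
Mki67, chr7:135716380-135716529: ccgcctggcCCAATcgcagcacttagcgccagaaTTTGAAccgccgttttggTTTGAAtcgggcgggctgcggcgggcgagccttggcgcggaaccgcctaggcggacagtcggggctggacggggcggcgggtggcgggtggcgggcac
Top2a, chr11:99024190-99024339: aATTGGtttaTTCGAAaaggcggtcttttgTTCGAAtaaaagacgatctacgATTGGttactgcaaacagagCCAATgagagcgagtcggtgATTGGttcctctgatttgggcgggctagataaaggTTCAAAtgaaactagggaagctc

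Library totals lay between 13193228 and 45724243 counts (median 24538109). WT running female replicate 2 and WT running male replicate 3, called below the libraries that stood apart, had no count for 8 and 5 of the 38 genes. The mean log2 CPM of the 38 genes was -0.34 and 0.20 in them, and 0.03 in WT cage female replicate 3. No criterion independent of the 38 genes is given for setting these 2 apart. Refits without them take libraries from the WT runners only and keep WT cage female replicate 3. In WT cage, 4 of the genes were at 0 in female replicate 3 and 1 in female replicate 4, and 1 was at 0 in male replicate 2 of cKO cage; the remaining 20 libraries had a count for all 38. CPM are counts relative to the library total, scaled between libraries by TMM. Prkaa1, which encodes the AMPK subunit named in the series title, stood at 13.4 to 31.1 CPM in the WT libraries, while cKO libraries held 13.9 to 22.6 CPM, and the difference did not pass the test (log2 fold change -0.36 ± 0.12 SE, edgeR adjusted p = 0.981). Reads of Cre were 0 in the 13 WT libraries and 7 to 42 in 11 of the 12 cKO libraries; cKO cage female replicate 3, as labelled, had 0. The eGFP reporter reached 119 CPM in 1 library labelled WT, running male replicate 2. Every cKO running library held 84.3 to 264 CPM of eGFP. In cKO cage, female replicate 1 held 163 CPM and male replicate 1 held 117, while the others held 0 to 2.60. Reporter level thus differed between the cKO activity groups. Its part in the comparisons was not tested beyond an eGFP covariate and a refit without the 2 libraries whose reporters go against their label. That refit called 0 of the 38 genes. The 11 tenocyte genes were counted in the tissue and summed to 5219 to 25250 CPM, but the 16 skeletal muscle fibre genes summed to 23704 to 224014 CPM and exceeded the tenocyte sum in every library. Granulocyte and B-cell precursor markers summed to at most 2.80 CPM in any library, macrophage markers to 150 to 558 CPM, and erythroid markers, which come with blood or marrow, to 124 to 512 CPM. For genotype in runners 7 of 8 tested erythroid genes were positive (median log2 fold change 1.19, 0 called), and their part in the results was not tested beyond the blood and marrow covariate. In the table's headers 2 cage libraries (male replicate 3 of cKO and female replicate 4 of WT) carry another project prefix than the other 23, and without them 0 of the 38 genes were called.

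Compared per transcript length, the replication genes led the list. Median FPKM over the 25 libraries was 10.6 for Pcna, the sliding clamp of the replication fork, 9.17 for Mcm7 and 5.72 for Mcm6, subunits of the replicative helicase. These lay at the 73.7th, 70.6th and 59.8th percentile of the tested genes. Mki67, the antigen Ki-67 that coats mitotic chromosomes, had 1.37 FPKM, and Top2a, which untangles DNA, had 1.00. The last places belonged to the mitotic cyclin gene Ccnb1 (0.31), the mitotic kinase gene Plk1 (0.28), the licensing factor gene Cdc6 (0.21) and the checkpoint kinase gene Bub1 (0.15, 4.74th percentile). In this order only the step from Mcm6 to Mcm4 (2.76) was larger than the SDs of both neighbours over the 25 libraries; no other pair of neighbours was further apart than both of its SDs. In bulk tissue, fewer dividing cells and less RNA per cell cannot be told apart.

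**Figure D1:**
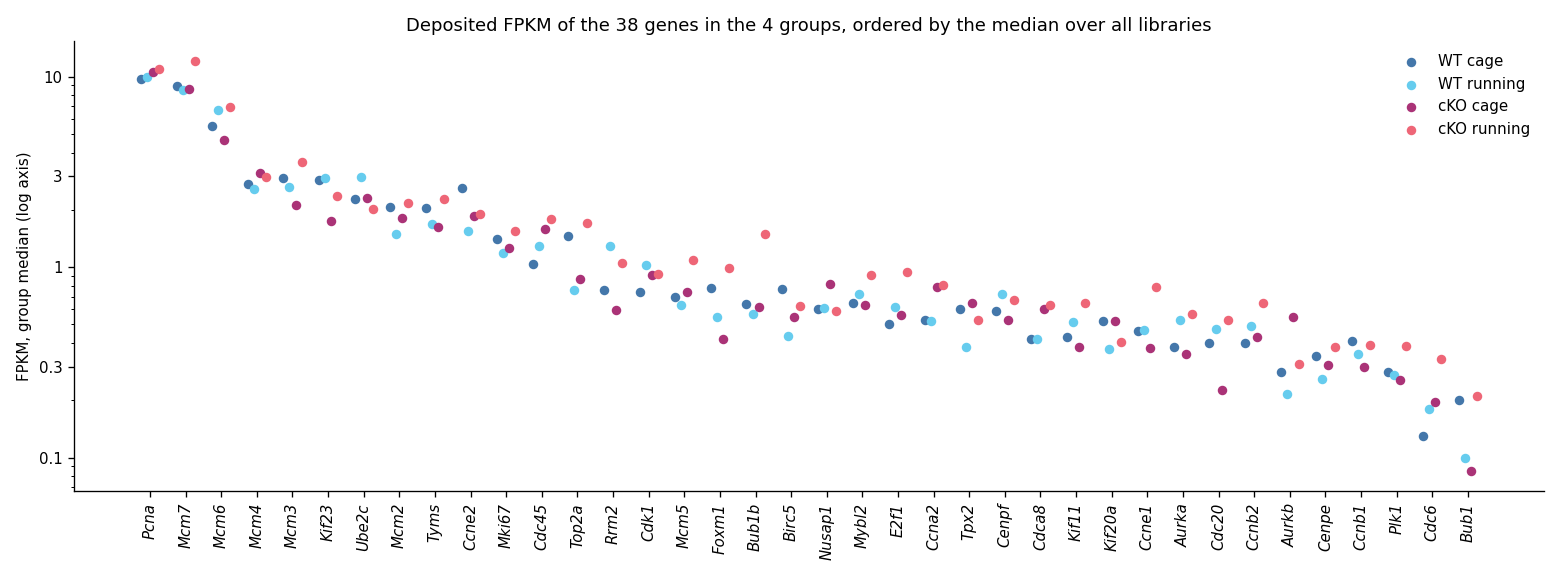
Median deposited FPKM (log axis) of each of the 38 genes in the 4 groups, ordered by the median over all libraries. Pcna, Mcm7 and Mcm6 stand highest and Bub1 lowest, and the 4 groups of a gene lie close together compared with the span of the list.

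The depth behind these levels was uneven. The median count over libraries was 368 for Mcm6 and 6 for Bub1, and 14 of the 38 genes had a median below 30 counts. The coefficient of variation of CPM over all 25 libraries was lowest for Mcm7 (13.8%) and highest for Ccnb1 (98.6%), with 18.0% for Mcm6 and 36.0% for Mki67.

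No gene of the list differed between the groups at an adjusted p under 0.05 in any of the 8 comparisons fitted by edgeR, and with the unadjusted p under 0.05 the number was 0 to 3 of 38. For cKO against WT, 0 of 38 were called at cage activity (all genes 0%), 0 of 38 in runners (all genes 0%) and 0 of 38 for the average over activities (all genes 0.00522%). For running against cage, 0 of 38 were called in WT (all genes 0.131%), 0 in cKO (0.0418%) and 0 for the average over genotypes (1.43%). The genotype-by-running interaction gave 0 of 38 (all genes 0%), and male against female 0 of 38 (all genes 0.616%). At an unadjusted p under 0.05 there was 1 gene for genotype at cage activity (1.13% of all genes), 2 in runners (11.3%) and 3 for the mean (3.78%), 2 for running in WT (9.74%), 0 in cKO (13.6%) and 2 for the mean (14.9%), 0 for the interaction (7.19%) and 3 for sex (10.1%). DESeq2 and limma-voom also called 0 of the 38 in every comparison.

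In none of the 7 comparisons of 2 sets of libraries did any of the 38 genes have sets that did not overlap. Among all genes this was seen for 0.047% (genotype, cage), 0.376% (genotype, runners), 0% (genotype, mean), 0.543% (running, WT), 0.887% (running, cKO), 0.0261% (running, mean) and 0.0679% (sex). The precision was limited: the 95% interval of a gene's log2 fold change reached, in the median, 0.80 to either side of the estimate for genotype at cage activity, 0.58 for the running mean and 1.15 for the interaction.

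The median log2 fold change of the 38 genes was 0.04 for genotype at cage activity, beside 0.00 over all tested genes, and 0.16 in runners, beside 0.01. Positive values were held by 24 and 26 of the 38. For running against cage the medians were 0.01 in WT, beside 0.00, and 0.09 in cKO, beside 0.03, with 19 and 25 positive. Males against females gave -0.11, beside -0.00, with 14 positive. Summed over the 38 genes, the WT cage libraries had 116 ± 16.4 CPM (SD, n = 7), the WT runners 118 ± 14.6, the cKO cage libraries 122 ± 14.0 and the cKO runners 126 ± 22.7 (n = 6 each), so the group means lay within 1 SD of each other.

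**Figure D2:**
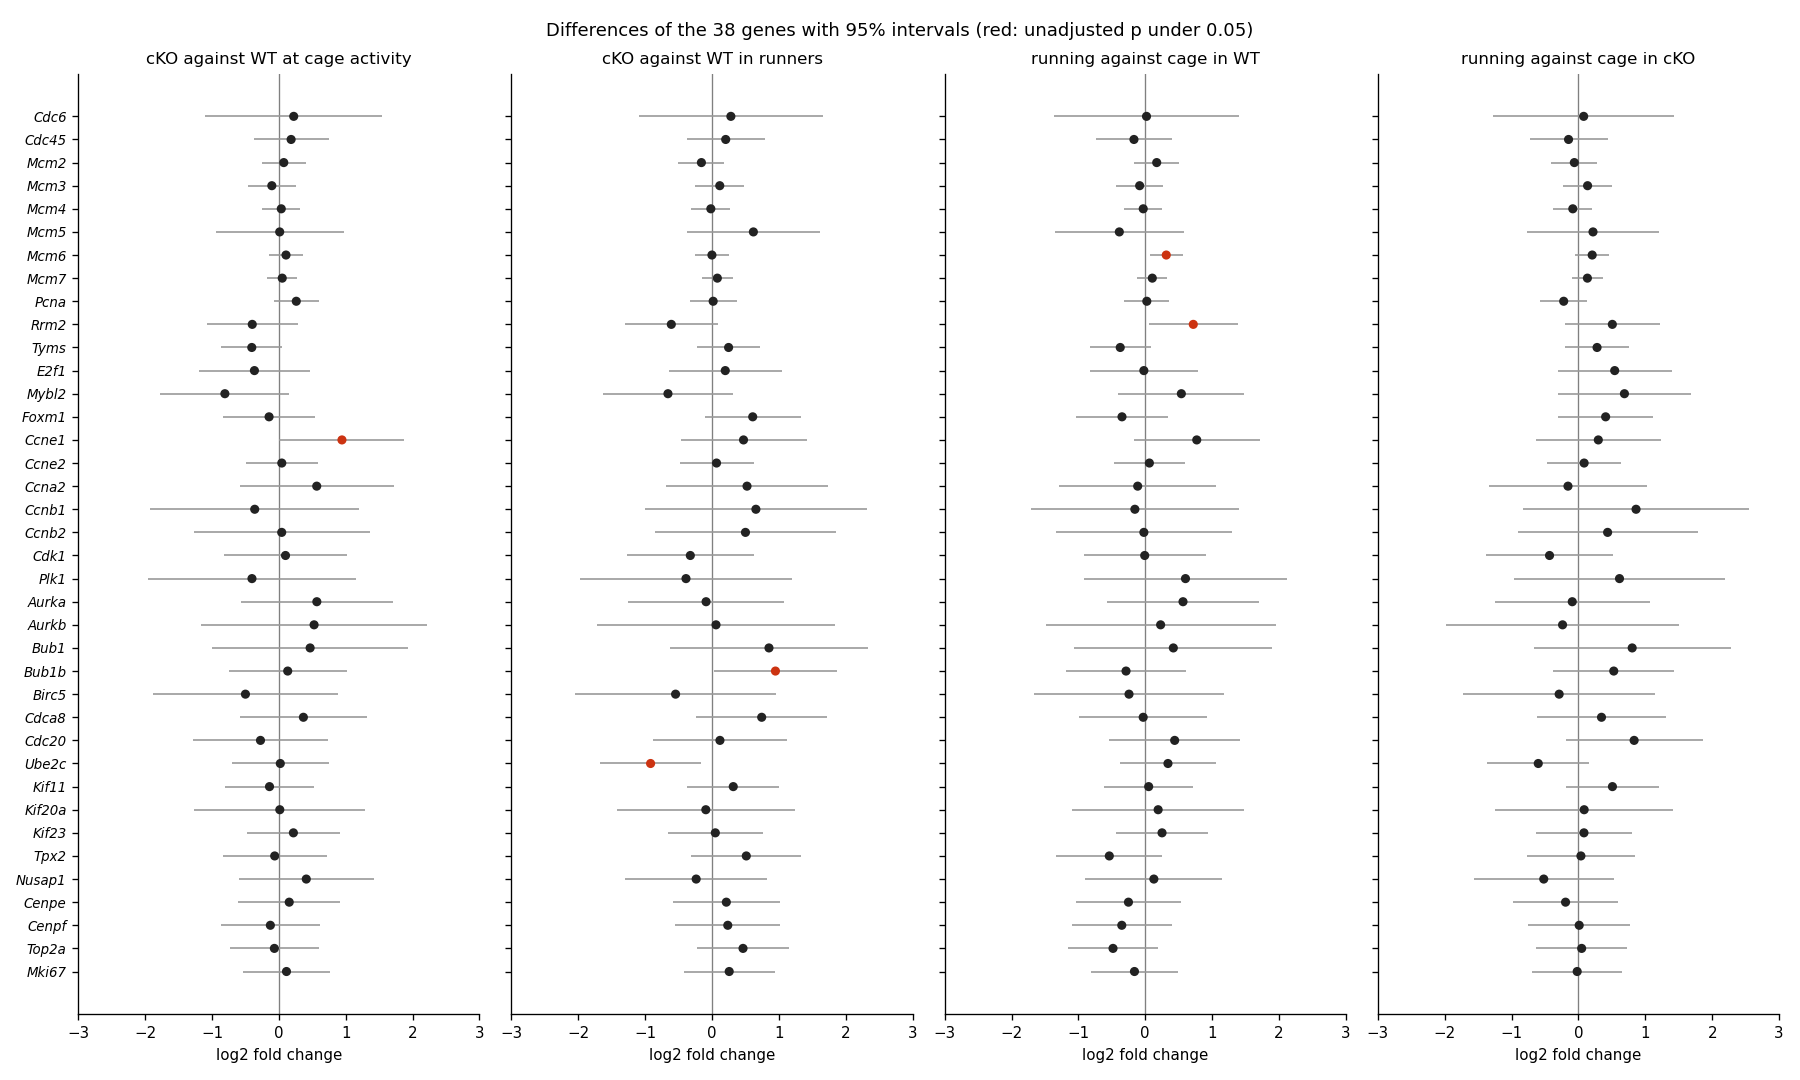
Log2 fold changes of the 38 genes (points) with 95% intervals (lines) in 4 comparisons, genes in order of role; red points have an unadjusted p under 0.05 and none passed the adjusted threshold. The intervals are narrowest for Pcna and the MCM genes other than Mcm5, and widest for Aurkb, Ccnb1 and Plk1.

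Replication licensing and the fork gave the best-measured members. Of these 9 genes, 8 had a positive log2 fold change in cKO at cage activity (median 0.07) and 6 in runners (0.08), and 5 of 9 were positive for running in each genotype. Mcm2, a helicase subunit, had a lowest, median and highest level of 3.13, 3.69 and 5.20 CPM in WT cage, 3.15, 4.79 and 5.97 in WT running, 3.33, 4.38 and 4.91 in cKO cage, and 3.45, 4.19 and 4.56 in cKO running. These ranges overlapped throughout, and the estimates were 0.07 ± 0.16 for genotype among cage animals and -0.16 ± 0.17 among runners. Mcm5, from the same ring, ran from 0.869 to 2.92 CPM in WT cage (median 1.66), from 0 to 2.64 in WT running (1.71), from 1.32 to 2.55 in cKO cage (1.90) and from 1.74 to 2.87 in cKO running (2.09). Its 0 and the next lowest value in WT running came from the libraries that stood apart. Pcna was at 8.49 to 14.6 CPM in WT cage (median 12.2), 6.38 to 16.5 in WT running (13.1), 12.6 to 16.8 in cKO cage (14.7) and 9.24 to 15.7 in cKO running (12.9). The genotype difference at cage activity was 0.26 ± 0.16 (edgeR adjusted p = 1.00), with the 2 ranges overlapping between 12.6 and 14.6 CPM.

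Mcm6 had the smallest p of the list for running in WT and averaged over genotypes. It stood at 11.0, 12.6 and 14.8 CPM (lowest, median, highest) in WT cage and at 9.82, 16.0 and 21.4 in WT running. In cKO it stood at 11.5, 13.4 and 17.4 CPM at cage activity and at 14.2, 15.8 and 18.6 in runners. Both running medians were therefore above both cage medians, and the sets overlapped: the 12 running libraries covered 9.82 to 21.4 CPM and the 13 cage libraries 11.0 to 17.4. The log2 fold change was 0.31 ± 0.12 in WT (edgeR adjusted p = 0.362), 0.21 ± 0.12 in cKO (0.470) and 0.26 ± 0.09 for the mean (0.142). The highest value belonged to WT running female replicate 2, one of the libraries that stood apart, and the lowest to WT running male replicate 1. On log2(FPKM + 1) the WT difference was 0.16 ± 0.19, but the mean difference was 0.30 ± 0.13. On log2(FPKM + 0.1) the mean difference was 0.34 ± 0.16, and with an eGFP covariate it was 0.29 ± 0.11. Without both libraries that stood apart the WT difference was 0.17 ± 0.12, and the mean difference was 0.19 ± 0.08 (edgeR adjusted p = 0.332). Mitochondrial rRNA made up 13.9% to 31.8% of the counts of a library. With it as a covariate the mean difference was 0.20 ± 0.10 (edgeR adjusted p = 0.552). Without WT running male replicate 1, Mcm6 passed the threshold for the running mean (0.32 ± 0.08, adjusted p = 0.0313), the only call of a member in any fit. Of the macrophage markers, 9 of 10 had positive values for the running mean, with a median log2 fold change of 0.52 and 0 called, and their part in the Mcm6 and Rrm2 values was not tested. The Mcm6 difference between the sexes was -0.22 ± 0.09 in males (adjusted p = 0.371), the smallest p of that comparison, followed by Mcm7 with -0.19 ± 0.08 (0.394) and Mcm2 with the opposite sign, 0.26 ± 0.12 (0.449).

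**Figure D3:**
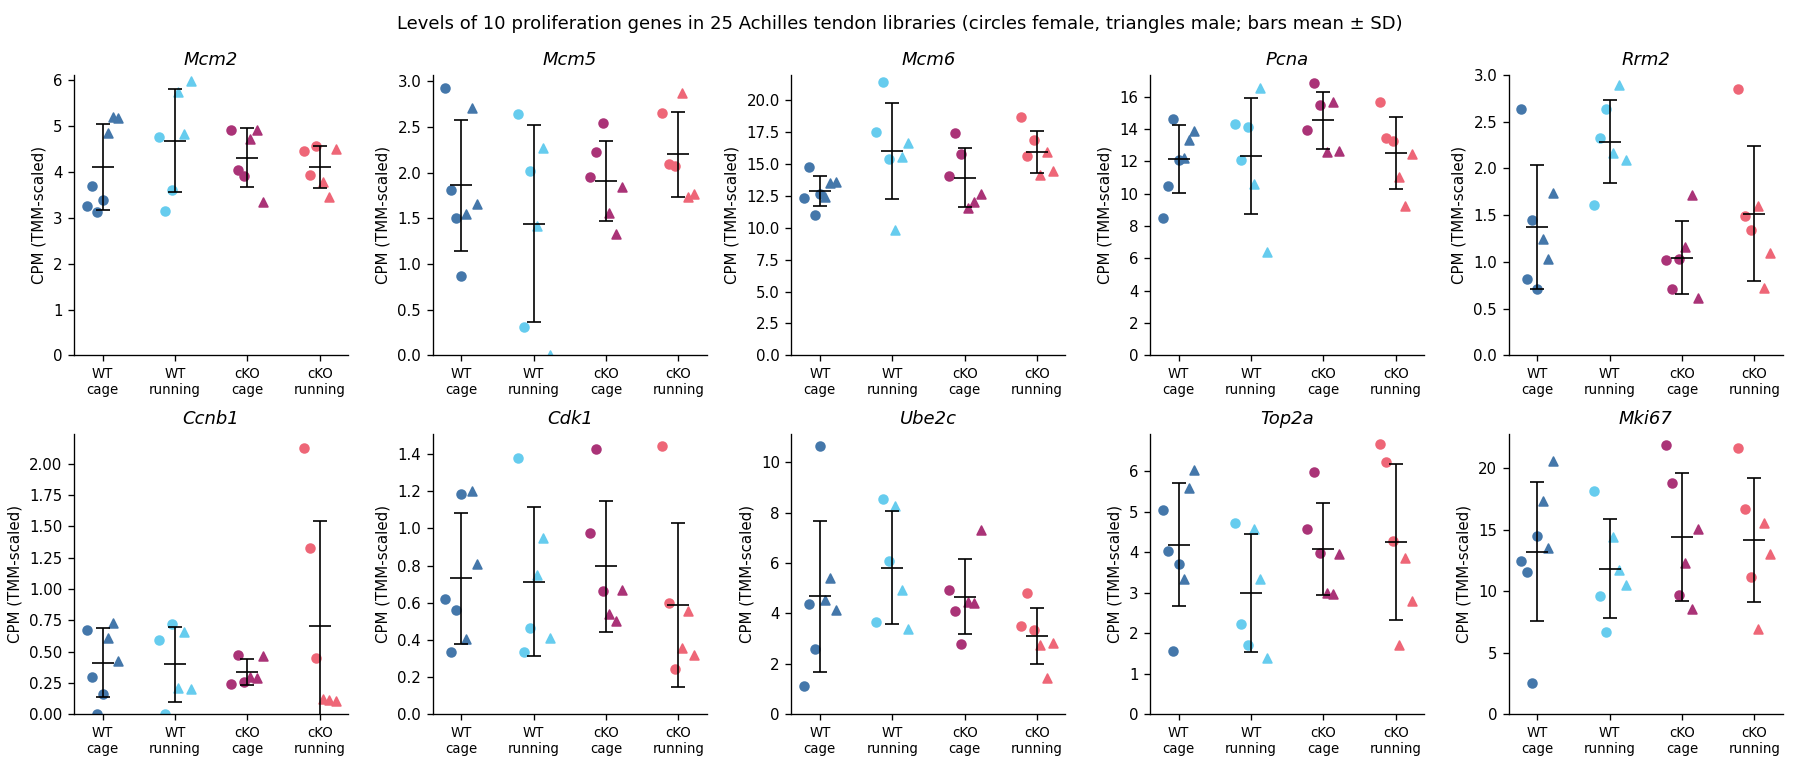
CPM of 10 of the genes in each library (circles female, triangles male) with the mean and SD of each group. The groups overlap in every panel; Mcm6 and Rrm2 have higher means in runners than in cage animals of the same genotype, and the lowest Mki67 value, 2.57 CPM, belongs to WT cage female replicate 3.

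Nucleotide supply was represented by Rrm2, the S-phase subunit of ribonucleotide reductase, and Tyms, thymidylate synthase. Rrm2 ran from 0.711 to 2.64 CPM in WT cage (median 1.25), from 1.61 to 2.89 in WT running (2.24), from 0.615 to 1.72 in cKO cage (1.03) and from 0.718 to 2.85 in cKO running (1.42). The WT runners lay above most cage libraries. Of the cKO runners, female replicate 2 held 2.85 CPM and the others 0.718 to 1.59. The running mean was 0.61 ± 0.23 (edgeR adjusted p = 0.216), with 0.72 ± 0.32 in WT (0.460) and 0.51 ± 0.34 in cKO (0.520), and genotype gave -0.50 ± 0.24 over both activities (0.981). Tyms did not share that pattern: its median was 3.40 CPM in WT cage, 2.42 in WT running, 2.57 in cKO cage and 2.88 in cKO running. Its interaction, 0.65 ± 0.32, had the smallest p of the list in that comparison (adjusted p = 0.672).

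The transcription factors gave values in both directions. Mybl2 (B-Myb) was low, with medians of 0.731 CPM in WT cage, 0.723 in WT running, 0.487 in cKO cage and 0.606 in cKO running. Genotype over both activities gave -0.73 ± 0.33 (edgeR adjusted p = 0.981), the smallest p of the list there, and -0.29 ± 0.28 without the 2 libraries that stood apart, one of which held the highest Mybl2 level (3.32 CPM). It was -0.01 ± 0.14 on log2(FPKM + 1), -0.06 ± 0.35 on log2(FPKM + 0.1) and -0.20 ± 0.46 with an eGFP covariate. That covariate marks eGFP above 10 CPM, reached mostly in cKO libraries, so in that fit it partly overlaps with genotype. Foxm1, its partner in the G2 wave, had medians of 1.90, 1.72, 1.55 and 2.03 CPM in the same order of groups, and 0.61 ± 0.35 for genotype in runners (0.488). For E2f1, which opens S phase, the group medians were 1.42, 1.82, 1.46 and 1.91 CPM.

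Among the cyclins, Ccne1 (cyclin E1, which starts S phase with Cdk2) had the smallest p for genotype at cage activity. Its levels were 0.159 to 0.645 CPM in WT cage (median 0.279), 0.0305 to 0.825 in WT running (0.590), 0.341 to 1.05 in cKO cage (0.584) and 0.489 to 0.996 in cKO running (0.742). The highest WT cage library lay inside the cKO range, and the difference of 0.94 ± 0.45 had an edgeR adjusted p of 1.00. On the deposited FPKM it was 0.03 ± 0.16 as log2(FPKM + 1) and 0.05 ± 0.41 as log2(FPKM + 0.1). Cyclin E2 (Ccne2), the most counted cyclin of the list, had log2 fold changes of 0.02 to 0.08 for genotype, running and their interaction, none of which passed the test. Cdk1 ranged from 0.332 to 1.20 CPM in WT cage (median 0.620), 0.336 to 1.38 in WT running (0.607), 0.501 to 1.43 in cKO cage (0.665) and 0.244 to 1.45 in cKO running (0.457). Ccnb1 (cyclin B1, its mitotic partner) ran from 0 to 0.731 CPM in WT cage (0.424), 0 to 0.723 in WT running (0.399), 0.243 to 0.476 in cKO cage (0.291) and 0.106 to 2.13 in cKO running (0.284). A single library, cKO running female replicate 2, held the highest level of both genes, while the medians of the cKO running group were the lowest of the 4.

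Of the 7 mitotic kinase, checkpoint and passenger genes, Bub1b (BubR1, a spindle checkpoint kinase) was the most counted. It stood at 1.37 to 1.89 CPM in WT cage (median 1.77), 0 to 1.91 in WT running (1.63), 1.26 to 2.82 in cKO cage (1.79) and 1.67 to 4.01 in cKO running (2.54). In runners cKO exceeded WT by 0.95 ± 0.45 (edgeR adjusted p = 0.439). The value of 0 belonged to WT running female replicate 2, and without the 2 libraries that stood apart the difference was 0.66 ± 0.25 (0.377). It was 1.87 ± 0.66 by limma-voom (adjusted p = 0.311) and 1.60 ± 0.51 on log2(FPKM + 0.1). The other 6 (Plk1, Aurka, Aurkb, Bub1, Birc5 and Cdca8) had group medians between 0.135 and 0.754 CPM.

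Among the spindle and chromosome genes, Mki67 was at 2.57, 13.5 and 20.6 CPM (lowest, median, highest) in WT cage, 6.66, 11.1 and 18.1 in WT running, 8.59, 13.7 and 21.8 in cKO cage, and 6.90, 14.3 and 21.7 in cKO running. The 4 ranges overlapped over most of their length, and the genotype difference was 0.11 ± 0.32 at cage activity (95% interval -0.54 to 0.77) and 0.26 ± 0.33 in runners (-0.42 to 0.94), with -0.16 ± 0.32 for running in WT and -0.02 ± 0.33 in cKO. Top2a was at 1.56, 4.02 and 6.02 CPM in WT cage, 1.38, 2.79 and 4.72 in WT running, 2.97, 3.97 and 5.99 in cKO cage, and 1.71, 4.07 and 6.66 in cKO running. Running in WT gave -0.48 ± 0.32 for Top2a (edgeR adjusted p = 0.664). Kif23, a kinesin of the spindle midzone and the most counted spindle gene by its mean, had group medians of 2.13 to 2.50 CPM. Kif11, which pushes spindle poles apart, had 0.51 ± 0.34 for running in cKO (0.509).

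Cdc20 and Ube2c serve the anaphase-promoting complex as activator and ubiquitin-conjugating enzyme. Cdc20 had medians of 0.407 CPM in WT cage, 0.607 in WT running, 0.353 in cKO cage and 0.725 in cKO running, with 0.83 ± 0.50 for running in cKO (edgeR adjusted p = 0.462). Ube2c was at 1.13, 4.39 and 10.7 CPM (lowest, median, highest) in WT cage, 3.37, 5.52 and 8.55 in WT running, 2.77, 4.43 and 7.33 in cKO cage, and 1.44, 3.08 and 4.83 in cKO running. The cKO runners were mostly below the WT runners, by -0.92 ± 0.37 (adjusted p = 0.401), the smallest p of the list for genotype in runners.

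The Ube2c value is uncertain. Ube2c (ENSMUSG00000001403, chromosome 2, 164769898 to 164778822, plus strand, GRCm38) shares 592 bases of exon with Tnnc2 on the opposite strand, the gene of fast-muscle troponin C, which had group medians of 1451 to 1922 CPM. Whether the counting used strand is not given in the sources used here, so reads of the 2 genes in the shared bases cannot be told apart, and the Ube2c count was 0.0775% to 0.578% of the Tnnc2 count. Of the 38 genes, Ube2c was the only one whose level across the 25 libraries followed the summed level of 16 muscle fibre genes after adjustment over the 38 relations: Pearson's r was 0.852 (permutation p = 1e-05, the smallest 100000 permutations can give, adjusted p = 0.00038) and Spearman's rho 0.807 (adjusted p = 0.00038). Without the 2 libraries farthest from the median muscle level r was 0.722, and within the 4 groups it was 0.860, 0.879, 0.798 and 0.902. With Tnnc2 alone r was 0.552 (permutation p = 0.00429), rho 0.553 (permutation p = 0.00436), and r 0.334 without the 2 libraries farthest from the median Tnnc2 level (permutation p = 0.119). Within WT cage, WT running, cKO cage and cKO running it was 0.611, 0.766, 0.248 and 0.770. Median muscle levels were 137022 CPM in WT cage, 131991 in WT running, 137133 in cKO cage and 71530 in cKO running. All 16 muscle genes had negative fold changes for genotype in runners (median log2 fold change -0.67), and 0 were called. With muscle level as a covariate the Ube2c difference in runners was -0.52 ± 0.28 (edgeR adjusted p = 0.731), and with a blood and marrow covariate -0.44 ± 0.36 (1.00). Opposite-strand exons were also shared by Kif20a with Cdc23 (1271 bases), Ccne2 with Ints8 (609), Ccna2 with Exosc9 (510) and, over 53 to 321 bases, by Mcm7, Cdca8, Cdc45, Nusap1, Plk1 and Cdc20. Ccnb2 has a transcribed pseudogene, Ccnb2-ps, with group medians of 0.397 to 0.713 CPM beside 0.545 to 0.712 CPM for Ccnb2 itself, and the split of reads between such copies is uncertain.

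**Figure D4:**
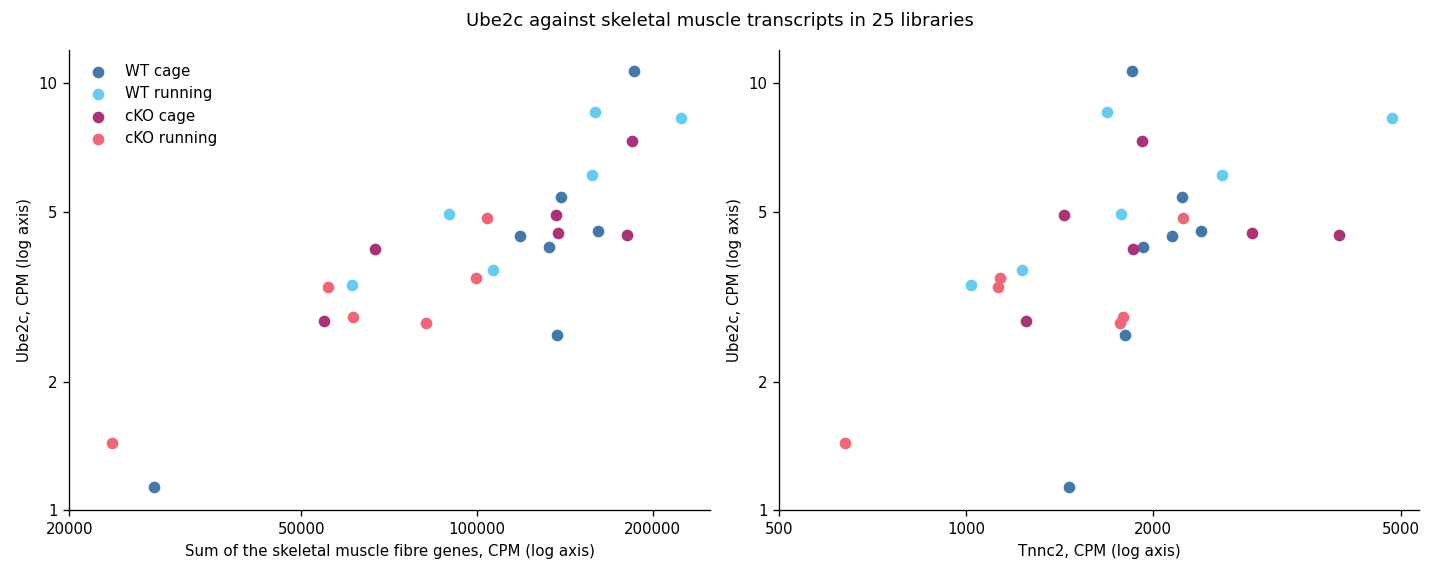
Ube2c CPM against the summed CPM of 16 skeletal muscle fibre genes (left) and against Tnnc2 CPM (right) in 25 libraries, all axes logarithmic, coloured by group. Ube2c follows the muscle sum (r = 0.852 on the log2 scale) more closely than it follows Tnnc2 (r = 0.552).

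Part of the list varied together from library to library. Across the 25 libraries, on log2 CPM, Mki67 was compared with each of the other 37 genes, and 13 relations passed an adjusted permutation p under 0.05 by Pearson's r, all positive, and 5 by Spearman's rho. The closest were Cenpf, a kinetochore protein (r = 0.836, adjusted p = 0.000185; rho = 0.752, 0.00111), and Top2a (r = 0.769, 0.000185; rho = 0.737, 0.00129). All 3 other kinetochore and chromosome genes, 4 of 7 mitotic kinase and checkpoint genes and 3 of 5 spindle genes were among the 13. So were 2 of 6 cyclin and Cdk1 genes and 1 of 3 transcription factors. The 13 held 0 of 9 licensing and fork genes and 0 of 2 nucleotide genes. They also held 0 of the 2 partners of the anaphase-promoting complex (r of 0.148 and 0.211). For the licensing and fork genes r ran from 0.0279 (Pcna) to 0.443 (Cdc6), with 0.219 for Mcm6. Whether r differs between the roles was not tested. The share of all tested genes that would pass with Mki67 by the same rule was not determined. Whether 13 of 37 is more than other genes would give is therefore not known.

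The libraries farthest from the median Mki67 level were WT cage female replicate 3 and WT running female replicate 3. Without them 4 of the 13 relations passed after adjustment: Top2a (r = 0.719, permutation adjusted p = 0.00259), Cenpf (0.695, 0.00321), Foxm1 (0.694, 0.00321) and Cdk1 (0.619, 0.0172). The other 9 no longer passed. Among them r went from 0.615 to 0.289 for Cenpe (permutation adjusted p = 0.320) and from 0.567 to 0.295 for Aurka (0.320), so those relations rest on the 2 libraries. It moved less for Kif23 (0.689 to 0.508, permutation adjusted p = 0.0961), Ccnb1 (0.543 to 0.499), Tpx2 (0.489 to 0.441) and Kif11 (0.479 to 0.436). For Cdca8 r went from 0.614 to 0.361, for Aurkb from 0.525 to 0.351 and for Bub1 from 0.472 to 0.259. Aurka, Aurkb, Bub1 and Ccnb1 had a count of 0 in WT cage female replicate 3, the library with the lowest Mki67 level, so their values there sit at the floor. Within the 4 groups Kif23 had r of 0.808, 0.621, 0.731 and 0.805. Centred on the group means, r with Mki67 was 0.850 for Cenpf and 0.793 for Top2a. Libraries with a high Mki67 level also had a high sum of 11 tenocyte markers (r = 0.635, permutation p = 0.0017, adjusted over 13 relations 0.0221; rho = 0.457, adjusted permutation p = 0.303). That relation had r = 0.414 without the same 2 libraries and, by group, 0.933 in WT cage, 0.165 in WT running, 0.517 in cKO cage and -0.0383 in cKO running, with no test within the groups of 6 or 7 libraries. With the total count of the library, r was 0.0756 (permutation p = 0.718; rho = -0.00154, permutation p = 0.995), and without the same 2 libraries -0.164.

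**Figure D5:**
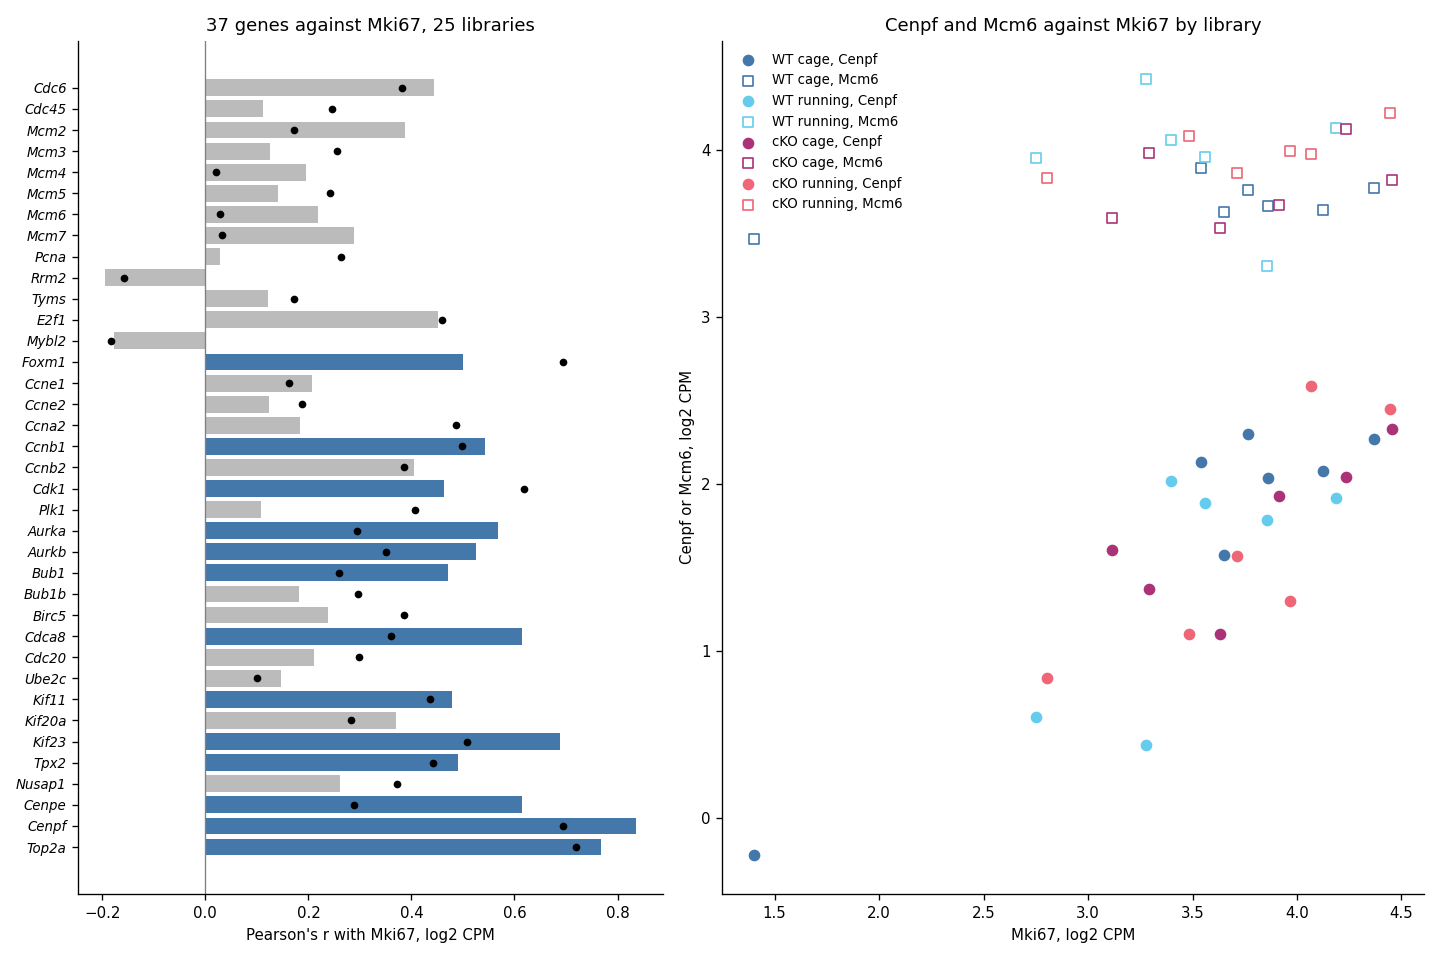
Left: Pearson's r of Mki67 with each of the other 37 genes on log2 CPM over 25 libraries (bars, blue where the adjusted permutation p is under 0.05), with r without the 2 libraries farthest from the median Mki67 level as black points. Right: Cenpf (filled circles) and Mcm6 (open squares) against Mki67 by library; Cenpf is high where Mki67 is high (r = 0.836) and for Mcm6 r is 0.219.

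The other cell cycle genes, taken from fixed lists of S phase, G2 and M phase, G1 and inhibitor genes, gave 0 calls in all 8 comparisons. Tested were 31 of 31 other S phase genes, 37 of 40 other G2 and M phase genes, 12 of 12 G1 cyclin, kinase and Cdc25 genes and 24 of 25 inhibitor and quiescence genes. Nearest to the threshold was Gmnn (geminin, which blocks relicensing of origins), with a mean of 1.55 ± 0.890 CPM for the 7 WT cage libraries (± SD), 1.05 ± 0.550 for WT runners, 1.73 ± 0.409 in cKO cage and 0.672 ± 0.216 in cKO running (n = 6). Its running mean was -0.97 ± 0.28 (edgeR adjusted p = 0.0853), with -1.38 ± 0.40 in cKO (0.174). E2f2, an activating E2F, gave 0.74 ± 0.22 for the running mean (0.0940), and its group means were 1.19, 2.29, 1.24 and 1.76 CPM in the same order. Cdkn2d, an inhibitor of Cdk4 and Cdk6, was at 3.06 CPM in WT cage and 4.33 in WT running (0.50 ± 0.16, adjusted p = 0.256), and 0.40 ± 0.16 for genotype at cage activity (1.00). Lower values in males had the smallest p for Cdk4, the G1 kinase (-0.39 ± 0.11, adjusted p = 0.136), and Cdkn1a, the inhibitor p21 (-0.49 ± 0.14, 0.151). Of the remaining genes nearest to the threshold, Rpa2, a single-strand DNA binding protein, gave -0.54 ± 0.18 and Lin37, a MuvB subunit, 0.71 ± 0.25 for genotype in runners (edgeR adjusted p = 0.387 for both), and Btg2, an antiproliferative factor, -0.44 ± 0.15 for running in cKO (0.231). Gins4, E2f5, Gins1 and Slbp were nearest elsewhere, with adjusted p of 0.672 or above. For running averaged over genotypes, 13 of 37 other G2 and M phase genes and 11 of 31 other S phase genes were positive, beside 22 of the 38 and 52.2% of all genes.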

How the data were processed

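Total RNA from Achilles tendons was sequenced in 25 libraries. The authors deposited RSEM expected counts and FPKM per gene; the submitters' processing notes name RSEM 1.3.3, STAR 2.7.8a, cutadapt 2.3, FastQC 0.11.8 and GRCm38 (mm10). The deposited FPKM divide by an estimated transcript length, so a change of isoform moves them. Whole-number expected counts went into edgeR 4.0.16 (R 4.3.3): filterByExpr, TMM, a model of 4 group means and sex, quasi-likelihood F-tests, two-sided, Benjamini-Hochberg over 19155 genes. Values after ± in fold changes are SE on the log2 scale. Reporter entries were left out. The members and gene lists were chosen with earlier results of these data known. Genes named are 8 fixed members, the 4 with the smallest p per comparison, the most counted of each role and the 2 other cell cycle genes with the smallest p per comparison; further members are named by role. Relations of Foxm1, Kif23, Cenpf, Aurka and Cenpe with Mki67, and E2f1, were singled out after their values were seen. Alternatives used DESeq2 1.42.0, limma 3.58.1, other filters, scalings, covariates and subsets. Only the edgeR fit was tested on simulated counts, with known running effects and for the running mean alone. Relations used 100000 permutations.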

Additional observations from a re-analysis of the deposited data

Results flagged for a closer look

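In 9 of 152 combinations of gene and group, 1 library lay far from the rest of its group by Dixon's test at the 95% level. Chance alone flags about 1 in 20 where values are normally distributed, which was not checked for these CPM. cKO running female replicate 2 held 3 of them, with Cdk1 at 1.45 CPM (the others 0.244 to 0.598), Bub1 at 1.00 (0.239 to 0.486) and Nusap1, a spindle protein gene, at 2.69 (0.769 to 1.41). It also had the highest summed level of the 38 genes, 163 CPM. In WT cage, Mcm3 stood at 11.1 CPM in female replicate 4, 1 of the 2 libraries with the less common project prefix (the others 5.50 to 7.65), Foxm1 at 3.09 in male replicate 3 (1.29 to 1.97) and Ccne1 at 0.645 in male replicate 2 (0.159 to 0.316). Among WT runners, Mybl2 stood at 3.32 CPM in male replicate 3 (0.499 to 0.978) and Bub1b at 0 in female replicate 2 (1.45 to 1.91). Ccna2 (cyclin A2) stood at 2.72 CPM in cKO cage female replicate 1, against 1.39 to 1.88 in the others.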

How the results depend on the processing

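Each comparison was refitted under up to 41 alternatives, and 0 of the 38 genes were called in all of them except 1: leaving out single libraries gave 0 to 1 called members for the running mean, the 1 being Mcm6 without WT running male replicate 1 (edgeR adjusted p = 0.0313). No call was lost and no called value changed sign, since the main fits called none. The median log2 fold change of the list ranged over the alternatives from -0.05 to 0.10 for genotype at cage activity, from 0.04 to 0.38 in runners, from -0.11 to 0.20 for running in WT, from -0.00 to 0.41 for running in cKO, from -0.05 to 0.15 for the running mean and from -0.06 to 0.40 for the interaction. Without the 2 WT running libraries that stood apart the median for running in WT was 0.20. Replicate numbers did not pair the libraries: over 34 pairs of the same number and sex, r of deviations ran from -0.20 to 0.21 (median -0.01), and 4 of 25 libraries correlated best with their own number. With a replicate block, 0 members were called in the 7 comparisons that could be fitted, with a median log2 fold change of 0.34 for genotype in runners, 0.04 at cage activity, and 0.05 for the running mean; over all genes, calls for the running mean went from 273 to 148. Depth limits the 14 of the 38 genes that had a median below 30 counts.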
